A study of Mus musculus with 7 samples.

Results

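The enzymes and regulators that make sterols, fatty acids and phospholipids were followed across mouse lung tumors and normal lung, as 35 genes found by their symbols among the 22447 genes with a symbol in the deposited expression files. They were grouped by role into 12 genes of sterol synthesis, 5 regulators, 14 genes of fatty acid synthesis and 4 genes of phospholipid synthesis. Of the 35, 34 passed the expression minimum of 1 FPKM in at least 2 libraries, as did 14057 genes in all, and the remaining gene, Hmgcs1, was listed at 0 in every library. RNA sequencing had been done on 7 libraries. The 3 OE tumors were lung tumors with the genotype EZH2 overexpression, the 2 OE normal lungs were lung labelled normal with the same genotype, and the 2 WT lungs were wild-type lung. EZH2 methylates histone H3 as the catalytic subunit of Polycomb repressive complex 2. The sources used here do not give the promoter that drives EZH2, the strain, the age of the animals or any treatment. The labels name lung tissue as the source, yet their growth text is about cultured nodules and human cell lines, so the tumor RNA may be from either tissue or culture.

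Sterols are built from acetyl-CoA through mevalonate, isoprenoid units and squalene, and fatty acids from acetyl-CoA and malonyl-CoA with NADPH as the reductant. The transcription factors SREBP-2 and SREBP-1, encoded by Srebf2 and Srebf1, are held in the endoplasmic reticulum by the INSIG proteins and carried to the Golgi by SCAP when sterols are low, with SREBP-2 acting mainly on sterol genes and SREBP-1c mainly on fatty acid genes. In the lung the alveolar type 2 cell uses these pathways to make surfactant, whose main lipid is a phosphatidylcholine with saturated chains.

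Because SREBP proteins bind sterol regulatory elements beside NF-Y boxes in many of these promoters, the RefSeq promoters of the members were searched for both on both strands, the first as TCACNCCAC, which reads GTGGNGTGA on the other strand, and the second as CCAAT, which reads ATTGG there. The windows are the 250 bases before each annotated start in build GRCm38.p6, whereas the expression files were made on mm9. A window was found for 29 of the 35 members. The NF-Y box was in 21 of the 29, against 37.5% of 27025 genes with a window, and was in 9 of 9 sterol synthesis genes, 4 of 5 regulators, 6 of 11 fatty acid genes and 2 of 4 phospholipid genes. The sterol regulatory element was in 2 of the 29, Hmgcs1 and Pcyt1a, against 1.22% of genes. A match is a description of the letters, not a bound site. The levels of Mvd, Fasn, Gpam, Me1, Acsl4 and Lpcat1 differed between tumors and both kinds of normal lung under every setting tried. Mvd, Fasn, Gpam and Me1 hold an NF-Y box, and Acsl4 and Lpcat1 hold neither motif. The windows of 4 genes are shown with the matches in capitals. They are Hmgcs1, which holds both motifs, and Mvd, Fasn and Gpam from the genes just named. They lie at chr13:119690101-119690350 on the plus strand (Hmgcs1), chr8:122443423-122443672 on the minus strand (Mvd), chr11:120824548-120824797 on the minus strand (Fasn) and chr19:55127239-55127488 on the minus strand (Gpam). In Fasn the 2 readings of the NF-Y box overlap in the run CCAATTGG.
Hmgcs1: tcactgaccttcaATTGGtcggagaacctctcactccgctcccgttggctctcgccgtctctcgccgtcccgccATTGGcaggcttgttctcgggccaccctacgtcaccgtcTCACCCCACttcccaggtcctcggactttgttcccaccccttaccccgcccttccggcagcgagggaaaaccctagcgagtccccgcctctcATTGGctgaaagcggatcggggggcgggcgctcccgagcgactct
Mvd: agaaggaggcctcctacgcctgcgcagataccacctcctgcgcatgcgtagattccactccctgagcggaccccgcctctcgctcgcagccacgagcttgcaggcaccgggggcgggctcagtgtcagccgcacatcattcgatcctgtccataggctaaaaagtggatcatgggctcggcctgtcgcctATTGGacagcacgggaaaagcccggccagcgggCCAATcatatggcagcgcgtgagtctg
Fasn: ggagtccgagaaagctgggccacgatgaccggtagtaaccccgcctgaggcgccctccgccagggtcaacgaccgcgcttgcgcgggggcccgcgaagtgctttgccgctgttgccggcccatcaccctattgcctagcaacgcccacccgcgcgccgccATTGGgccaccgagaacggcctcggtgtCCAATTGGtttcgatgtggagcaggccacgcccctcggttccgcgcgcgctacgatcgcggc
Gpam: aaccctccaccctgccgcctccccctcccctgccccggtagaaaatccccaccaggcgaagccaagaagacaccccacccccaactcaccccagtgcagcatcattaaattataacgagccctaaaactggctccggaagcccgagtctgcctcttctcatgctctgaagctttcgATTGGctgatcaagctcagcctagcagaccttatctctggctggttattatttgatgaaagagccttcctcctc

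Values are FPKM, fragments scaled by transcript length and library size, which can be set beside each other between genes. Differences are tumor minus normal lung on the log2(FPKM + 1) scale with the standard error (SE) of limma, which understates changes of low genes, and a gene was called at a Benjamini-Hochberg adjusted p under 0.05 over all 14057 genes. A difference given without a normal group is from OE normal lung. Values of a group are given in the order of its replicates, and n is 3 tumors, 2 OE normal lungs and 2 WT lungs. Whether replicates were separate animals is not stated, and p-values cover no more than the spread among these libraries. By the sex-linked genes given below, tumor 1 was from a different animal than tumors 2 and 3. OE normal 1 likewise differed in sex from OE normal 2. Sex does not separate tumor 2 from tumor 3, or WT 1 from WT 2, so their spread may be technical. FPKM summed to 405166 to 503550 per library, and genes at 1 FPKM or more numbered 12028 to 12625 per tumor and 13203 to 13567 per normal lung. Ezh2 was at 8.48, 23.5 and 22.6 FPKM in the tumors, 10.2 and 11.5 in OE normal and 3.72 and 2.58 in WT lung, so tumor 1 was below both OE normal lungs and above both WT lungs. Tumor 1 stood apart, with a correlation of log2 values across genes of 0.897 and 0.894 with tumors 2 and 3, against 0.970 between tumors 2 and 3. Leaving tumor 1 out raised the calls among all 14057 genes from 5350 to 9620 against OE normal lung. Against WT lung they rose from 5371 to 9438. A call gained without tumor 1 is thus to be read beside those counts. The Y-linked Eif2s3y was between 27.4 and 30.7 FPKM in tumor 1, OE normal 1 and both WT lungs, and Xist between 60.6 and 74.2 FPKM in tumors 2 and 3 and OE normal 2. Sex was thus mixed among the tumors and among the OE normal lungs and male in both WT lungs, and its part in the results was not tested. Tumor 1 was the only male tumor. Without tumor 1 the tumors left were female and both WT lungs male, so tumor and sex cannot be told apart against WT lung at that setting. The 2 tumor comparisons share the 3 tumors and are given side by side.

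Cell make-up also differed between the groups. Of 9 alveolar type 2 markers 6 were higher in the tumors than in OE normal lung, and their sum without Sftpc was 7650 to 12805 FPKM in the tumors, 2047 to 3022 FPKM in OE normal lung and 2402 to 3312 FPKM in WT lung. Sftpc itself was listed at 0 in tumors 2 and 3. With it the sums overlapped, at 12650 to 43594 FPKM in the tumors, 12625 to 17343 FPKM in OE normal lung and 15452 to 19227 FPKM in WT lung. Of the 6 adipocyte markers tested 5 were lower against OE normal lung and 4 against WT lung, while Pparg was higher in both comparisons. The 7 listed markers summed to 11.9 to 27.5 FPKM in the tumors, 41.0 to 113 FPKM in OE normal lung and 24.7 to 26.3 FPKM in WT lung, mostly Pparg in the tumors. Without Pparg the sum was 0.499 to 0.820 FPKM in the tumors, 36.1 to 105 FPKM in OE normal lung and 19.6 to 21.7 FPKM in WT lung, with Lep at 0 in all tumors. All 7 heart muscle markers were lower, with sums of 3.11 to 6.06 FPKM against 661 to 1596 FPKM in OE normal lung and 708 to 1237 FPKM in WT lung. All 8 endothelial markers were lower too, with sums of 73.6 to 95.4 FPKM against 1107 to 1223 and 1232 to 1366 FPKM. Of 10 macrophage markers 2 were higher against OE normal lung and 4 against WT lung. Their sums were 458 to 1300 FPKM in the tumors, 292 to 358 FPKM in OE normal lung and 146 to 183 FPKM in WT lung. Of 5 club cell markers 4 were lower, 5 of 5 ciliated markers were lower and 3 of 7 fibroblast markers were lower. The remaining club cell marker, Scgb1a1, was at 2227, 56.3 and 1095 FPKM in the tumors and listed at 0 in all 4 normal lungs, where a 0 may be a failed estimate, so no direction is read from it. The part of these cell types in the results on lipid genes was not tested, and in bulk RNA fewer cells of a type cannot be told apart from less RNA per cell.

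In the tumors, lipid synthesis genes lay on both sides of normal lung. Against OE normal lung 3 of 11 sterol synthesis genes, 1 of 5 regulators, 7 of 14 fatty acid genes and 3 of 4 phospholipid genes were called, beside 38.1% of all genes, and no test compared these groups of genes. In all, 14 of the 34 tested members were called, 9 higher and 5 lower, or 41.2% of them, beside that 38.1% (13.1% higher and 24.9% lower). Against WT lung 17 of 34 were called, 12 higher and 5 lower, or 50.0%, beside 38.2% of all genes (15.0% higher and 23.2% lower). The total share of members called was thus near the background against OE normal lung. The members called higher against both normal groups were 8, Mvd, Srebf1, Fasn, Elovl1, Me1, Acsl4, Lpcat1 and Chka, and 5 lower, Mvk, Sqle, Acacb, Elovl5 and Gpam. Scd2 was called higher against OE normal lung alone, Dhcr7, Acly, Acaca and Fads2 against WT lung alone, and 16 tested members in neither. The share of all genes called against both normal groups was not counted. Between OE normal and WT lung 0 of 34 members and 0.0% of all genes were called by limma. At an unadjusted p under 0.05 there were 2 members, Chka and Elovl5, and 8.59% of all genes. The tumors did not overlap OE normal lung in 23 of 34 members (60.9% of all genes) or WT lung in 25 (63.9%), and OE normal and WT lung did not overlap in 12 (52.6%). The split by direction depended on the scaling. The members called against OE normal lung were 9 higher and 5 lower on the deposited values, 12 and 5 with median-of-ratios scaling, 11 and 5 with quantile normalization, 8 and 7 without small RNA genes and 6 and 9 after rescaling to TPM. These scalings moved the median log2 difference of all genes from -0.11 to 0.05, 0.11, -0.23 and -0.33.

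**Figure D1:**
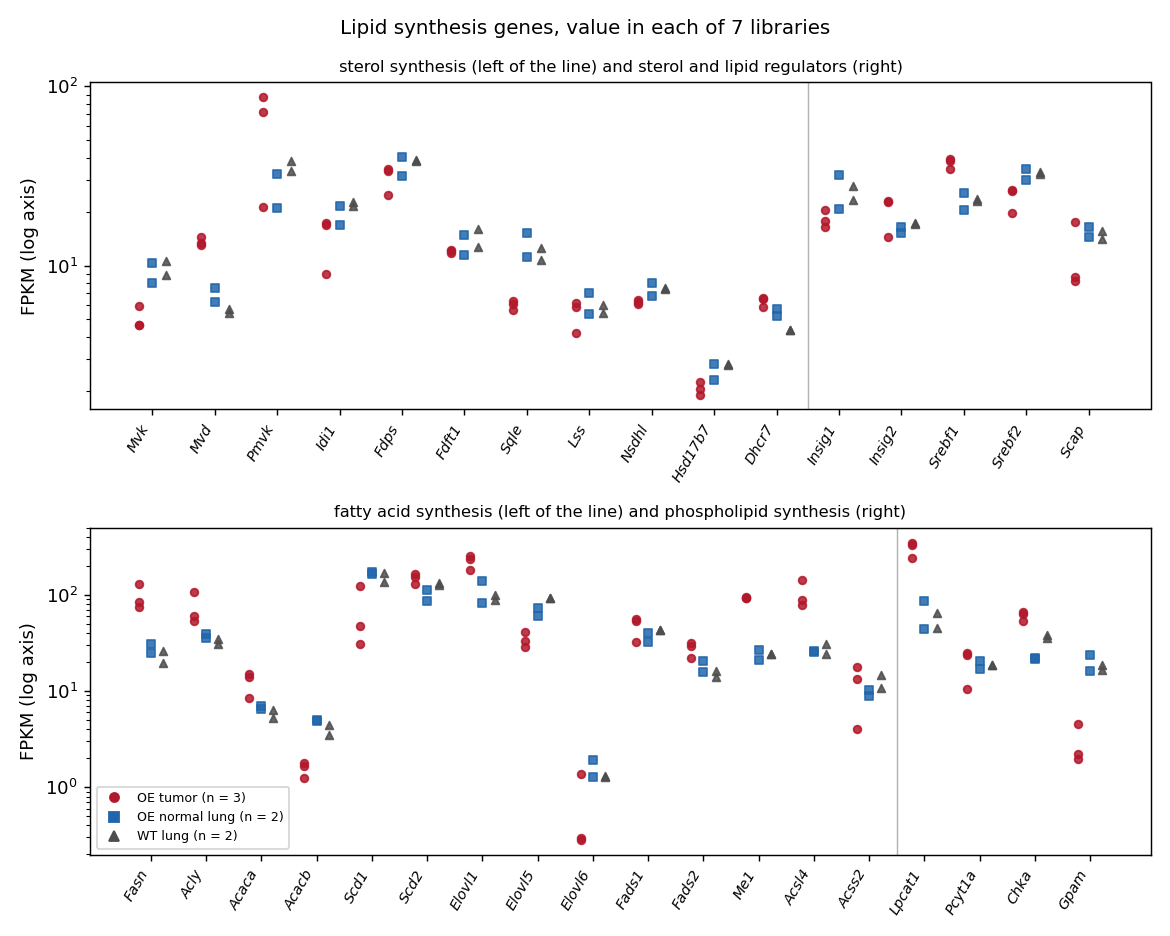
Level of each lipid synthesis gene in FPKM on a log axis, with 1 point for each of the 7 libraries, colored by group. Hmgcs1, listed at 0, is not drawn. The tumors lie above all normal lungs for Fasn, Me1, Acsl4 and Lpcat1 and below them for Gpam, Acacb and Elovl5.

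**Figure D2:**
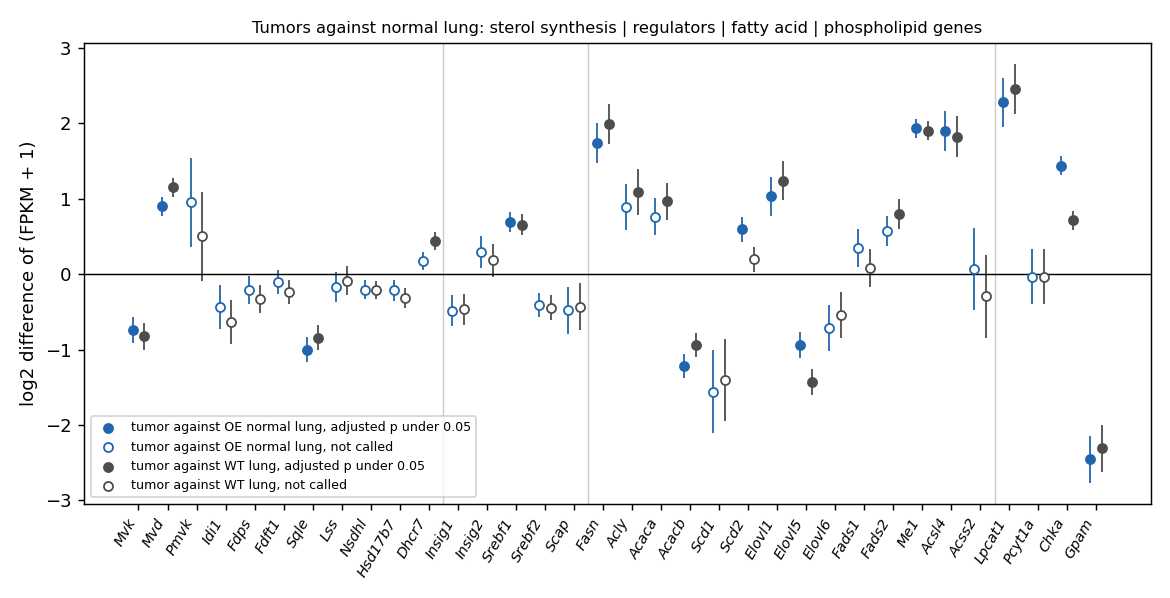
Log2 difference of each tested member between tumors and OE normal lung and between tumors and WT lung, on the log2(FPKM + 1) scale, with bars for the SE, ordered by role. Gpam is lowest, at -2.45 and -2.31, and Lpcat1 highest, at 2.28 and 2.46.

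Of the 11 sterol synthesis genes tested, 1 rose (9.09%) and 2 fell (18.2%) against OE normal lung, beside 13.1% and 24.9% of all genes. The median log2 difference was -0.21 beside -0.11 over all genes. Against WT lung 2 rose and 2 fell (18.2% each), beside 15.0% and 23.2% of all genes, with a median of -0.23 beside -0.06. Hmgcs1, which makes HMG-CoA ahead of the rate-limiting reductase, was listed at 0 in all 7 libraries, so nothing was measured of it. Mevalonate kinase, Mvk, was at 5.93, 4.65 and 4.68 FPKM in the tumors, 10.3 and 8.01 in OE normal and 8.90 and 10.6 in WT lung. The tumors were lowest, without overlap. Mvk fell against OE normal lung (log2 difference -0.74 ± 0.17 SE, adjusted p = 0.0189), as it did against WT lung (log2 difference -0.82 ± 0.17 SE, adjusted p = 0.0131). Without tumor 2, tumor 3 or OE normal 1 the first call was lost, with adjusted p up to 0.129, as under quantile normalization, and without either WT lung the second, with adjusted p up to 0.111.

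The next steps turn mevalonate phosphates into isoprenoid units. Phosphomevalonate kinase, Pmvk, was at 21.3, 71.8 and 87.1 FPKM in the tumors, 20.9 and 32.3 in OE normal and 38.2 and 33.6 in WT lung. Tumors 2 and 3 lay above all normal lungs and tumor 1 among them, and Pmvk was not called against OE normal lung (log2 difference 0.95 ± 0.59 SE, adjusted p = 0.244). Without tumor 1 the log2 difference was 1.57, with adjusted p = 0.00185. Mevalonate diphosphate decarboxylase, Mvd, was at 12.9, 13.4 and 14.5 FPKM in the tumors, 7.46 and 6.25 in OE normal and 5.43 and 5.72 in WT lung. All 3 tumors were above all 4 normal lungs. Mvd was 1.99-fold over OE normal lung (log2 difference 0.90 ± 0.13 SE, adjusted p = 0.00303). It was 2.44-fold over WT lung (log2 difference 1.15 ± 0.13 SE, adjusted p = 0.00128). Isopentenyl diphosphate isomerase, Idi1, which interconverts the isoprenoid units, was at 8.98, 17.3 and 16.9 FPKM in the tumors, 21.5 and 16.9 in OE normal and 21.5 and 22.7 in WT lung. Tumor 1 was lowest, tumors 2 and 3 overlapped OE normal lung, and Idi1 was called neither against OE normal lung (log2 difference -0.44 ± 0.29 SE, adjusted p = 0.273) nor against WT lung (log2 difference -0.64 ± 0.29 SE, adjusted p = 0.130). Without tumor 1 it was called lower against WT lung, with adjusted p = 0.0476.

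Farnesyl diphosphate synthase, Fdps, was at 24.6, 34.5 and 33.9 FPKM in the tumors, 40.1 and 31.7 in OE normal and 39.1 and 38.5 in WT lung. Squalene synthase, Fdft1, was at 12.3, 11.7 and 12.1 FPKM in the tumors, 14.7 and 11.4 in OE normal and 12.7 and 16.0 in WT lung. For both the tumors lay below WT lung without overlap. Against OE normal lung Fdps was not called (log2 difference -0.21 ± 0.19 SE, adjusted p = 0.404), nor was Fdft1 (log2 difference -0.10 ± 0.16 SE, adjusted p = 0.636). Squalene epoxidase, Sqle, a rate-limiting step after squalene, was at 5.64, 6.11 and 6.35 FPKM in the tumors, 15.2 and 11.2 in OE normal and 10.7 and 12.6 in WT lung. The tumors lay close together and below every normal lung. Sqle was 2.19-fold lower than in OE normal lung (log2 difference -1.0002 ± 0.16 SE, adjusted p = 0.00510). It was 1.93-fold lower than in WT lung (log2 difference -0.84 ± 0.16 SE, adjusted p = 0.00997), a call lost without WT 2 (adjusted p = 0.0922).

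After squalene the ring is closed and trimmed. Lanosterol synthase, Lss, was at 4.19, 6.18 and 5.83 FPKM in the tumors, 7.02 and 5.35 in OE normal and 6.01 and 5.45 in WT lung, with overlapping groups (log2 difference -0.17 ± 0.20 SE, adjusted p = 0.522). The sterol dehydrogenase Nsdhl was at 6.43, 6.09 and 6.30 FPKM in the tumors, 8.02 and 6.79 in OE normal and 7.45 and 7.37 in WT lung. The 3-ketosteroid reductase Hsd17b7 was at 1.90, 2.03 and 2.25 FPKM in the tumors, 2.82 and 2.29 in OE normal and 2.84 and 2.78 in WT lung. Both lay lower in the tumors without overlap. Against OE normal lung neither Nsdhl (log2 difference -0.21 ± 0.12 SE, adjusted p = 0.230) nor Hsd17b7 (log2 difference -0.21 ± 0.14 SE, adjusted p = 0.253) was called. The last enzyme of the list, Dhcr7, which makes cholesterol from 7-dehydrocholesterol, was at 5.83, 6.63 and 6.48 FPKM in the tumors, 5.24 and 5.72 in OE normal and 4.37 and 4.38 in WT lung. It was above both normal groups and called against WT lung (log2 difference 0.44 ± 0.12 SE, adjusted p = 0.0334). The difference from OE normal lung was not called (log2 difference 0.17 ± 0.12 SE, adjusted p = 0.303). The WT call was lost without any 1 library other than tumor 1, with adjusted p up to 0.175, and after rescaling to TPM or leaving out small RNA genes.

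Summed over the list, sterol synthesis genes gave 110.0, 180.3 and 196 FPKM in the tumors, 153 and 138 FPKM in OE normal lung and 157 and 159.7 FPKM in WT lung. Much of the spread among the tumors was in Pmvk. Without it the sums were 88.7, 109 and 109 FPKM in the tumors, 133 and 106 FPKM in OE normal lung and 119 and 126 FPKM in WT lung. Over all genes 24.9% were lower against OE normal lung and 23.2% against WT lung. Beside that, other sterol synthesis genes gave 0 higher and 2 lower (22.2%) of 9 tested in each comparison. Among these was the lanosterol demethylase Cyp51, at 4.24 ± 0.423 FPKM in the tumors (SD, n = 3) and 7.11 ± 1.15 FPKM in OE normal lung (SD, n = 2, log2 difference -0.63 ± 0.15 SE, adjusted p = 0.0186). The Cyp51 call was lost without tumor 2, tumor 3 or OE normal 1, with adjusted p up to 0.128, under quantile normalization and when only the groups compared were fitted.

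Among the regulators 1 of 5 (20.0%) was called in each tumor comparison, Srebf1, which was higher. Over all genes 13.1% were higher against OE normal lung and 15.0% against WT lung. The medians were -0.41 against OE normal lung and -0.43 against WT lung, beside -0.11 and -0.06 over all genes. Srebf1 was at 34.6, 38.2 and 39.3 FPKM in the tumors, 25.5 and 20.3 in OE normal and 23.0 and 23.6 in WT lung. The tumors lay above all normal lungs. Srebf1 was 1.63-fold over OE normal lung (log2 difference 0.69 ± 0.13 SE, adjusted p = 0.00924). It was 1.61-fold over WT lung (log2 difference 0.66 ± 0.13 SE, adjusted p = 0.0113). The first call was lost without OE normal 2 (adjusted p = 0.0627) and after rescaling to TPM, and the second without either WT lung (adjusted p up to 0.0831). Both Srebf1 calls were also lost with a replicate block. Srebf2 was at 19.7, 26.2 and 26.4 FPKM in the tumors, 34.4 and 30.0 in OE normal and 33.2 and 32.5 in WT lung. It lay the other way, below all normal lungs. It was called neither against OE normal lung (log2 difference -0.41 ± 0.16 SE, adjusted p = 0.0882) nor against WT lung (log2 difference -0.44 ± 0.16 SE, adjusted p = 0.0734), but without tumor 1 against both, with adjusted p of 0.0302 and 0.0222. Srebf1 over Srebf2 was 1.76, 1.46 and 1.49 in the tumors, 0.740 and 0.677 in OE normal lung and 0.692 and 0.726 in WT lung, so the larger of the pair was Srebf1 in the tumors and Srebf2 in normal lung.

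The proteins that hold and carry the SREBPs were not called. Insig1, itself a sterol-responsive SREBP target, was at 17.8, 20.3 and 16.5 FPKM in the tumors, 32.0 and 20.8 in OE normal and 23.3 and 27.7 in WT lung, below the normal lungs without overlap (log2 difference -0.49 ± 0.21 SE, adjusted p = 0.112). Insig2 was at 14.4, 23.0 and 22.8 FPKM in the tumors, 16.4 and 15.2 in OE normal and 17.0 and 17.3 in WT lung, with tumors 2 and 3 above all normal lungs and tumor 1 below them (log2 difference 0.29 ± 0.22 SE, adjusted p = 0.321). Scap was at 17.5, 8.58 and 8.21 FPKM in the tumors, 16.4 and 14.5 in OE normal and 15.6 and 14.1 in WT lung, with tumors 2 and 3 below all normal lungs and tumor 1 above them (log2 difference -0.48 ± 0.32 SE, adjusted p = 0.270). Without tumor 1 both were called against OE normal lung, with adjusted p of 0.00193 for Insig2 and 0.00106 for Scap. At that setting 9620 of all 14057 genes were called.

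Of the 14 fatty acid synthesis genes 5 rose (35.7%) and 2 fell (14.3%) against OE normal lung, beside 13.1% and 24.9% of all genes. The median was 0.58 beside -0.11 over all genes. Against WT lung 7 rose (50.0%) and 2 fell (14.3%), beside 15.0% and 23.2% of all genes, with a median of 0.50 beside -0.06. The genes that supply carbon and NADPH come first. Malic enzyme 1, Me1, a cytosolic source of NADPH, was at 95.9, 93.4 and 91.8 FPKM in the tumors, 26.7 and 21.1 in OE normal and 24.1 and 24.6 in WT lung. The 3 tumors lay close together and were 3.92-fold above OE normal lung (log2 difference 1.94 ± 0.13 SE, adjusted p = 0.000310). They were 3.85-fold above WT lung (log2 difference 1.90 ± 0.13 SE, adjusted p = 0.000274). In both comparisons this was the smallest adjusted p of the 34 members. ATP citrate lyase, Acly, which makes cytosolic acetyl-CoA from citrate, was at 108, 59.7 and 53.5 FPKM in the tumors, 39.2 and 35.7 in OE normal and 34.5 and 30.6 in WT lung. All tumors were above all normal lungs. The difference was called against WT lung (log2 difference 1.09 ± 0.30 SE, adjusted p = 0.0328) and not against OE normal lung (log2 difference 0.89 ± 0.30 SE, adjusted p = 0.0608). Acss2, which makes acetyl-CoA from acetate, was at 4.04, 13.5 and 17.8 FPKM in the tumors, 10.3 and 8.91 in OE normal and 10.7 and 14.8 in WT lung, with tumor 1 lowest of all libraries and tumor 3 highest (log2 difference 0.07 ± 0.55 SE, adjusted p = 0.930). Without tumor 1 the log2 difference was 0.64, with adjusted p = 0.0321.

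The 2 acetyl-CoA carboxylases were called in opposite directions against WT lung. Acaca, whose cytosolic product malonyl-CoA feeds synthesis, was at 8.50, 15.0 and 14.1 FPKM in the tumors, 7.01 and 6.54 in OE normal and 6.29 and 5.26 in WT lung. It was above all normal lungs, called against WT lung (log2 difference 0.97 ± 0.25 SE, adjusted p = 0.0251) and not against OE normal lung (log2 difference 0.76 ± 0.25 SE, adjusted p = 0.0530). The calls of Acly and Acaca against WT lung were lost without most single libraries, with adjusted p up to 0.167 for Acly and 0.154 for Acaca. Without tumor 1 both were called against OE normal lung too, with adjusted p of 0.00404 and 0.000683. The log2 difference of Acly was then 0.58, smaller than with tumor 1, and that of Acaca 0.999. Acacb, the mitochondrial form, whose malonyl-CoA restrains fatty acid oxidation, was at 1.26, 1.68 and 1.77 FPKM in the tumors, 4.86 and 5.05 in OE normal and 3.48 and 4.39 in WT lung. It was 3.16-fold lower than in OE normal lung (log2 difference -1.22 ± 0.16 SE, adjusted p = 0.00221). It was 2.51-fold lower than in WT lung (log2 difference -0.94 ± 0.16 SE, adjusted p = 0.00572, and lost without WT 2, adjusted p = 0.0586, and under quantile normalization). Acaca over Acacb was 6.76, 8.91 and 7.97 in the tumors and between 1.20 and 1.81 in the 4 normal lungs. Acacb is abundant in heart and fat. The summed heart muscle markers, and the summed adipocyte markers other than Pparg, were lower in the tumors too, whereas Pparg was higher. Their part in the result was not tested.

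Fatty acid synthase, Fasn, which builds palmitate, was at 129.9, 84.9 and 75.1 FPKM in the tumors, 30.6 and 24.7 in OE normal and 26.4 and 19.7 in WT lung. Tumor 1 was highest, and the lowest tumor was above the highest normal lung. Fasn was 3.49-fold over OE normal lung (log2 difference 1.74 ± 0.27 SE, adjusted p = 0.00397) and 4.20-fold over WT lung (log2 difference 2.00 ± 0.27 SE, adjusted p = 0.00247). Fasn rose where squalene epoxidase fell, and Fasn over Sqle was 23.0, 13.9 and 11.8 in the tumors, 2.01 and 2.21 in OE normal lung and 2.46 and 1.57 in WT lung. Acsl4, which activates long polyunsaturated chains to acyl-CoA, was at 142, 88.4 and 78.6 FPKM in the tumors, 25.5 and 26.2 in OE normal and 31.1 and 24.0 in WT lung. Tumor 1 was again highest. Acsl4 rose 3.98-fold over OE normal lung (log2 difference 1.90 ± 0.27 SE, adjusted p = 0.00289) and 3.73-fold over WT lung (log2 difference 1.83 ± 0.27 SE, adjusted p = 0.00343). The summed alveolar type 2 markers were also higher in the tumors without Sftpc, by the values given with the cell types. With Sftpc they overlapped normal lung, but its 0 in tumors 2 and 3 may be a failed estimate. In the sum without Sftpc tumor 1 was the lowest tumor, at 7650 FPKM, but single markers went both ways. Of the tumors, tumor 1 was highest for Sftpd, Abca3 and Etv5 and lowest for Sftpa1, Sftpb, Lamp3, Slc34a2 and Napsa. The part of these cells in the result was not tested.

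The stearoyl-CoA desaturases, which place the first double bond, lay on opposite sides of OE normal lung. Scd1 was at 125, 30.6 and 47.2 FPKM in the tumors, 172 and 166 in OE normal and 169 and 136 in WT lung. All tumors were below all normal lungs, with tumor 1 nearest to them. The difference was called neither against OE normal lung (log2 difference -1.56 ± 0.55 SE, adjusted p = 0.0674) nor against WT lung (log2 difference -1.40 ± 0.55 SE, adjusted p = 0.0890). Without tumor 1 the log2 difference from OE normal lung was -2.12 with adjusted p = 0.000649. Scd2 was at 164, 154 and 130.2 FPKM in the tumors, 111 and 85.9 in OE normal and 127 and 132 in WT lung. It was above OE normal lung (log2 difference 0.60 ± 0.17 SE, adjusted p = 0.0322) and overlapped WT lung (log2 difference 0.20 ± 0.17 SE, adjusted p = 0.377). The Scd2 call was lost without tumor 2, OE normal 2 or either WT lung (adjusted p up to 0.187), and after rescaling to TPM or quantile normalization. That call was also lost with a replicate block, without a filter, without small RNA genes and with only the groups compared. Scd2 over Scd1 was 1.31, 5.03 and 2.76 in the tumors and between 0.518 and 0.975 in normal lung. The 2 genes are close paralogs, and the sources used here do not say how reads shared by them were counted.

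Elongases and desaturases of longer chains differed by member. Elovl1, which lengthens saturated and monounsaturated very long chains, was at 184, 234 and 253 FPKM in the tumors, 141 and 82.2 in OE normal and 98.7 and 88.2 in WT lung. Elovl5, which lengthens polyunsaturated chains, was at 41.6, 33.2 and 28.7 FPKM in the tumors, 72.4 and 60.7 in OE normal and 93.4 and 93.8 in WT lung. Elovl1 rose 2.00-fold over OE normal lung (log2 difference 1.03 ± 0.26 SE, adjusted p = 0.0236) and 2.39-fold over WT lung (log2 difference 1.24 ± 0.26 SE, adjusted p = 0.0128). Elovl5 fell to a level 1.93-fold below OE normal lung (log2 difference -0.94 ± 0.18 SE, adjusted p = 0.00850) and 2.71-fold below WT lung (log2 difference -1.43 ± 0.18 SE, adjusted p = 0.00187). Elovl1 over Elovl5 was 4.41, 7.04 and 8.82 in the tumors and between 0.940 and 1.95 in normal lung. The Elovl1 call against OE normal lung was lost without tumor 2, tumor 3 or OE normal 2 (adjusted p up to 0.117) and after rescaling to TPM. The call against WT lung was lost without either WT lung (adjusted p up to 0.0928). The Elovl5 call against OE normal lung was lost without OE normal 1 (adjusted p = 0.0654). Elovl6, which takes palmitate to stearate, was low, at 1.36, 0.283 and 0.294 FPKM in the tumors, 1.27 and 1.94 in OE normal and 1.28 and 1.31 in WT lung. Tumor 1 overlapped the normal lungs and tumors 2 and 3 lay far below them (log2 difference -0.71 ± 0.30 SE, adjusted p = 0.110, and adjusted p = 0.00254 without tumor 1).

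The delta-6 desaturase Fads2 was at 21.8, 31.3 and 29.6 FPKM in the tumors, 20.5 and 15.9 in OE normal and 16.4 and 14.1 in WT lung. The tumors were above all normal lungs. Fads2 was called against WT lung (log2 difference 0.80 ± 0.20 SE, adjusted p = 0.0224) and not against OE normal lung (log2 difference 0.57 ± 0.20 SE, adjusted p = 0.0659). The call was lost without tumor 2, tumor 3 or either WT lung, with adjusted p up to 0.148. The delta-5 desaturase Fads1 was at 32.7, 55.9 and 53.3 FPKM in the tumors, 40.3 and 32.2 in OE normal and 43.6 and 43.4 in WT lung, with tumors 2 and 3 above all normal lungs and tumor 1 among them (log2 difference 0.35 ± 0.25 SE, adjusted p = 0.314). Without tumor 1 both were called higher against OE normal lung, Fads1 with a log2 difference of 0.59 and adjusted p = 0.00677 and Fads2 with adjusted p = 0.00600. Summed over the 14 genes, fatty acid synthesis gave 1060.0, 896 and 875 FPKM in the tumors, 703 and 573 FPKM in OE normal lung and 686 and 633 FPKM in WT lung. The tumor mean of 944 ± 101 FPKM (SD, n = 3) was 1.48-fold the 638 ± 91.8 FPKM of OE normal lung (n = 2), with no overlap.

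**Figure D3:**
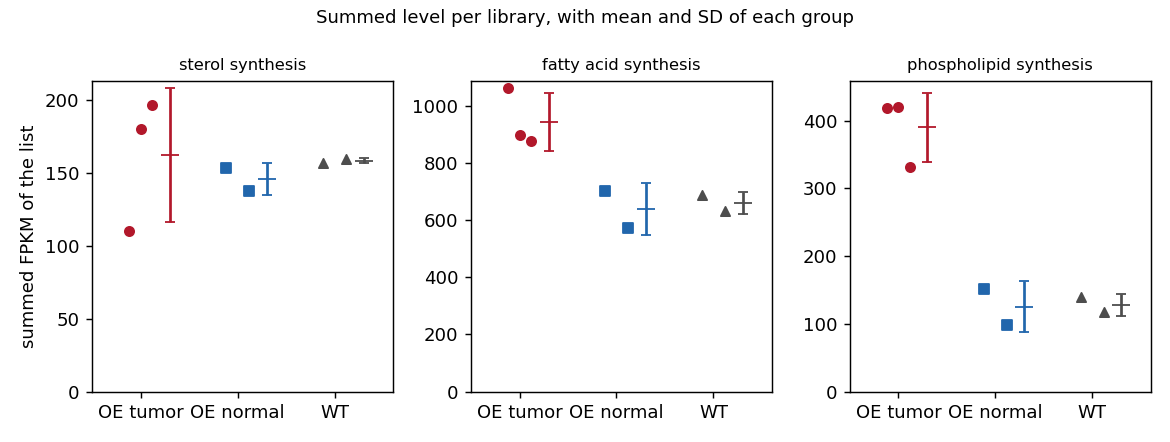
Summed FPKM of each list of members per library, as points by group, with the group mean and SD. Fatty acid synthesis lies between 875 and 1060.0 FPKM in the tumors and between 573 and 703 FPKM in normal lung, and phospholipid synthesis between 331 and 419 FPKM in the tumors and between 98.9 and 152 FPKM in normal lung, while sterol synthesis overlaps.

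Of the 4 phospholipid genes 2 rose and 1 fell in each comparison, where 13.1% of all genes rose and 24.9% fell against OE normal lung and 15.0% and 23.2% against WT lung. The medians were 0.70 beside -0.11 over all genes and 0.34 beside -0.06. Lpcat1, the acyltransferase that makes the saturated phosphatidylcholine of surfactant in alveolar type 2 cells, was at 350.3, 327 and 240.4 FPKM in the tumors, 85.5 and 44.1 in OE normal and 64.2 and 45.7 in WT lung. The tumors lay far above every normal lung. Lpcat1 was 4.72-fold above OE normal lung (log2 difference 2.28 ± 0.33 SE, adjusted p = 0.00312) and 5.57-fold above WT lung (log2 difference 2.46 ± 0.33 SE, adjusted p = 0.00244). Of the 9 alveolar type 2 markers, 6 rose in the same comparisons and 3 were not called, and their part in the result was not tested. Choline kinase alpha, Chka, the first step of the choline pathway, was at 53.7, 66.5 and 63.9 FPKM in the tumors, 22.3 and 21.5 in OE normal and 38.2 and 35.6 in WT lung. The tumors were above every normal lung. Chka was 2.80-fold over OE normal lung (log2 difference 1.44 ± 0.13 SE, adjusted p = 0.000628) and 1.66-fold over WT lung (log2 difference 0.71 ± 0.13 SE, adjusted p = 0.00740; adjusted p = 0.0735 without WT 2). OE normal lung was itself below WT lung, by 0.73 on the log2 scale (SE 0.14), which was not called (adjusted p = 0.215) unless tumor 1 was left out of the shared spread (adjusted p = 0.0400).

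Pcyt1a, the rate-limiting cytidylyl transferase of that pathway, was at 10.4, 23.6 and 24.7 FPKM in the tumors, 20.7 and 17.0 in OE normal and 18.7 and 18.8 in WT lung, with tumor 1 lowest and tumors 2 and 3 highest of all libraries (log2 difference -0.03 ± 0.36 SE, adjusted p = 0.953). Without tumor 1 Pcyt1a was called higher against OE normal lung (log2 difference 0.35, adjusted p = 0.0306) and against WT lung (log2 difference 0.35, adjusted p = 0.0314). Gpam, the mitochondrial acyltransferase that starts glycerolipid synthesis, was at 4.59, 1.99 and 2.19 FPKM in the tumors, 23.6 and 16.3 in OE normal and 18.5 and 16.7 in WT lung. It had the lowest log2 difference of the members, 6.83-fold below OE normal lung (log2 difference -2.45 ± 0.31 SE, adjusted p = 0.00199) and 6.03-fold below WT lung (log2 difference -2.31 ± 0.31 SE, adjusted p = 0.00254). Lpcat1 over Gpam was 76.4, 165 and 109.6 in the tumors and between 2.71 and 3.62 in normal lung. Fat and heart are rich in Gpam. In the tumors the heart muscle markers summed to 3.11 to 6.06 FPKM and the adipocyte markers to 0.499 to 0.820 FPKM without Pparg and 11.9 to 27.5 FPKM with it, and their part in the result was not tested. The 4 genes together summed to 419.0, 419 and 331 FPKM in the tumors, 152 and 98.9 FPKM in OE normal lung and 139.6 and 117 FPKM in WT lung, most of which was Lpcat1 in the tumors.

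**Figure D4:**
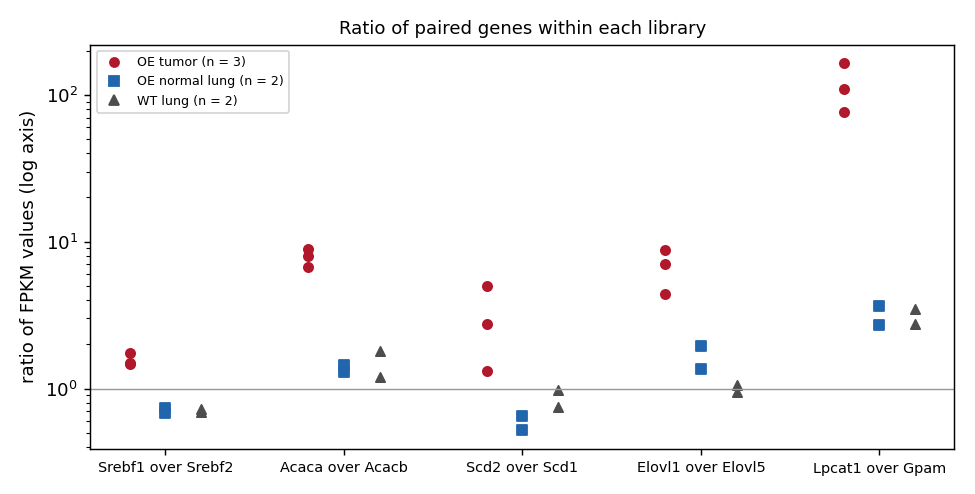
Ratio of FPKM values of paired genes within each library on a log axis, 1 point per library, colored by group. Srebf1 over Srebf2 is above 1 in the tumors and below 1 in normal lung, and Lpcat1 over Gpam is 76.4 to 165 in the tumors and 2.71 to 3.62 in normal lung.

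The pathways around the members were counted in the same way. Over all genes 13.1% were higher and 24.9% lower against OE normal lung, and 15.0% and 23.2% against WT lung. No test compared these lists with those shares. Sterol efflux and storage gave 3 higher and 0 lower of 9 tested against OE normal lung, and 4 higher and 0 lower against WT lung, with medians of 0.52 and 0.56. Soat1, which esterifies cholesterol for storage, was at 119 ± 44.0 FPKM in the tumors (SD, n = 3) against 16.4 ± 3.12 FPKM in OE normal lung (SD, n = 2, log2 difference 2.71 ± 0.35 SE, adjusted p = 0.00211). Npc2, which moves cholesterol out of lysosomes with Npc1, was at 579 ± 46.5 against 178 ± 39.3 FPKM (log2 difference 1.71 ± 0.18 SE, adjusted p = 0.000987). Npc1 was at 29.2 ± 9.07 against 15.2 ± 0.757 FPKM (log2 difference 0.86 ± 0.23 SE, adjusted p = 0.0304; lost without either OE normal or either WT lung, with adjusted p up to 0.147, and after rescaling to TPM).

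Other fatty acid synthesis genes gave 5 higher and 5 lower of 19 against OE normal lung, with a median of 0.06. Each is 26.3%, beside 13.1% of all genes higher and 24.9% lower. Idh1, a cytosolic source of NADPH like Me1, was at 252 ± 74.1 against 32.7 ± 9.15 FPKM (log2 difference 2.89 ± 0.30 SE, adjusted p = 0.00103). The acyl-CoA synthetases went both ways. Acsl5 was at 109 ± 11.4 against 53.8 ± 2.46 FPKM (log2 difference 1.01 ± 0.13 SE, adjusted p = 0.00200), and Acsl1 was at 5.37 ± 1.53 against 25.6 ± 0.238 FPKM (log2 difference -2.09 ± 0.21 SE, adjusted p = 0.000910). Acsl4 over Acsl1 was 37.1, 16.3 and 11.4 in the tumors and 0.991 to 1.37 in normal lung. The mitochondrial malic enzyme Me3 was at 0.162 ± 0.108 against 1.53 ± 0.0917 FPKM (log2 difference -1.13 ± 0.17 SE, adjusted p = 0.00378). Other phospholipid genes gave 5 higher and 6 lower of 25 (20.0% and 24.0%), with a median of -0.15. Lpcat3, which puts polyunsaturated chains into phospholipids, rose from 16.8 ± 2.06 to 38.5 ± 3.42 FPKM (log2 difference 1.15 ± 0.13 SE, adjusted p = 0.00154). Agpat4, an acyltransferase of phosphatidic acid synthesis, was at 3.09 ± 2.04 against 21.3 ± 4.36 FPKM (log2 difference -2.54 ± 0.38 SE, adjusted p = 0.00375). Cds2, which makes CDP-diacylglycerol, was at 17.7 ± 2.79 against 34.2 ± 0.452 FPKM (log2 difference -0.92 ± 0.15 SE, adjusted p = 0.00498). Pcyt1b, the other cytidylyl transferase, was at 0.191 ± 0.161 against 1.13 ± 0.0946 FPKM (log2 difference -0.85 ± 0.15 SE, adjusted p = 0.00711). The call of this low gene was lost under quantile normalization (adjusted p = 0.0734) and with a replicate block (adjusted p = 0.0594).

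Triglyceride and lipid droplet genes gave 2 higher and 5 lower of 11 (18.2% and 45.5%), beside 13.1% and 24.9% of all genes against OE normal lung. The median was -0.69 against OE normal lung and 0.11 against WT lung. The droplet proteins Plin4, Plin5 and Cidea and the lipase Lipe fell. Plin4 went from 7.78 ± 1.36 to 0.207 ± 0.0353 FPKM (log2 difference -2.86 ± 0.15 SE, adjusted p = 0.000274) and Plin5 from 3.33 ± 0.740 to 0.478 ± 0.121 FPKM (log2 difference -1.54 ± 0.17 SE, adjusted p = 0.00124). Cidea went from 3.31 ± 0.743 to 0.223 ± 0.238 FPKM (log2 difference -1.82 ± 0.23 SE, adjusted p = 0.00206) and Lipe from 18.7 ± 2.10 to 6.89 ± 0.459 FPKM (log2 difference -1.32 ± 0.12 SE, adjusted p = 0.000737). Of the 6 adipocyte markers tested 5 fell too, while Pparg rose, and all 7 heart muscle markers fell. The part of these cell types in the result was not tested. Mogat1, a monoacylglycerol acyltransferase named after its values were seen, was at 5.28, 19.0 and 30.2 FPKM in the tumors, 0.558 and 0.202 in OE normal and 0.139 and 0.254 in WT lung (log2 difference 3.53 ± 0.64 SE, adjusted p = 0.00728; adjusted p = 0.0572 without OE normal 2). Fatty acid oxidation genes gave 1 higher and 4 lower of 16, with a median of -0.09. The called genes with the smallest adjusted p were Hadhb (log2 difference -0.77 ± 0.15 SE, adjusted p = 0.00866), Pdk4 (log2 difference -2.06 ± 0.44 SE, adjusted p = 0.0130), Acads (log2 difference 0.50 ± 0.12 SE, adjusted p = 0.0179) and Cpt1a (log2 difference -0.86 ± 0.21 SE, adjusted p = 0.0194). The calls of Pdk4, Acads and Cpt1a were lost with a replicate block, and that of Acads also after rescaling to TPM (adjusted p = 0.0748). Each of these 4 calls was lost without at least 1 library. It was OE normal 2 for Hadhb and Pdk4, tumor 2 or either OE normal lung for Acads and tumor 2, tumor 3 or OE normal 1 for Cpt1a, with adjusted p of 0.0625 for Hadhb, 0.0945 for Pdk4, up to 0.102 for Acads and up to 0.125 for Cpt1a.

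Fatty acid uptake and binding genes gave 3 higher and 2 lower of 8 against OE normal lung and 4 higher and 2 lower against WT lung. For all genes the shares were 13.1% higher and 24.9% lower, and 15.0% and 23.2%. Fabp3, the fatty acid binding protein of heart and muscle, was at 0.535 ± 0.399 FPKM in the tumors and 59.1 ± 22.1 FPKM in OE normal lung, SD (log2 difference -5.27 ± 0.38 SE, adjusted p = 0.000373), and heart muscle markers fell with it. Among the fatty acid transport proteins Slc27a1 was at 20.9 ± 1.60 against 11.6 ± 2.17 FPKM (log2 difference 0.81 ± 0.15 SE, adjusted p = 0.00728). Slc27a4 was at 21.3 ± 8.44 against 6.77 ± 0.0925 FPKM (log2 difference 1.44 ± 0.33 SE, adjusted p = 0.0168) and Slc27a3 at 2.57 ± 0.491 against 4.59 ± 0.189 FPKM (log2 difference -0.65 ± 0.15 SE, adjusted p = 0.0187). Each of these 3 calls was lost without OE normal 2, and the calls of Slc27a4 and Slc27a3 also without tumor 2 or OE normal 1, with adjusted p up to 0.0503 for Slc27a1, 0.0901 for Slc27a4 and 0.107 for Slc27a3. The Slc27a3 call was also lost with median-of-ratios scaling (adjusted p = 0.0573) and quantile normalization (log2 difference -0.18, adjusted p = 0.459). Fabp5, a fatty acid binding protein of epithelia named after its values were seen, was at 166, 923 and 821 FPKM in the tumors, 85.5 and 85.2 in OE normal and 81.0 and 55.7 in WT lung. Tumors 2 and 3 were far above tumor 1, which was above all normal lungs (log2 difference 2.54 ± 0.74 SE, adjusted p = 0.0380; adjusted p up to 0.153, the call being lost without any 1 library other than tumor 1).

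**Figure D5:**
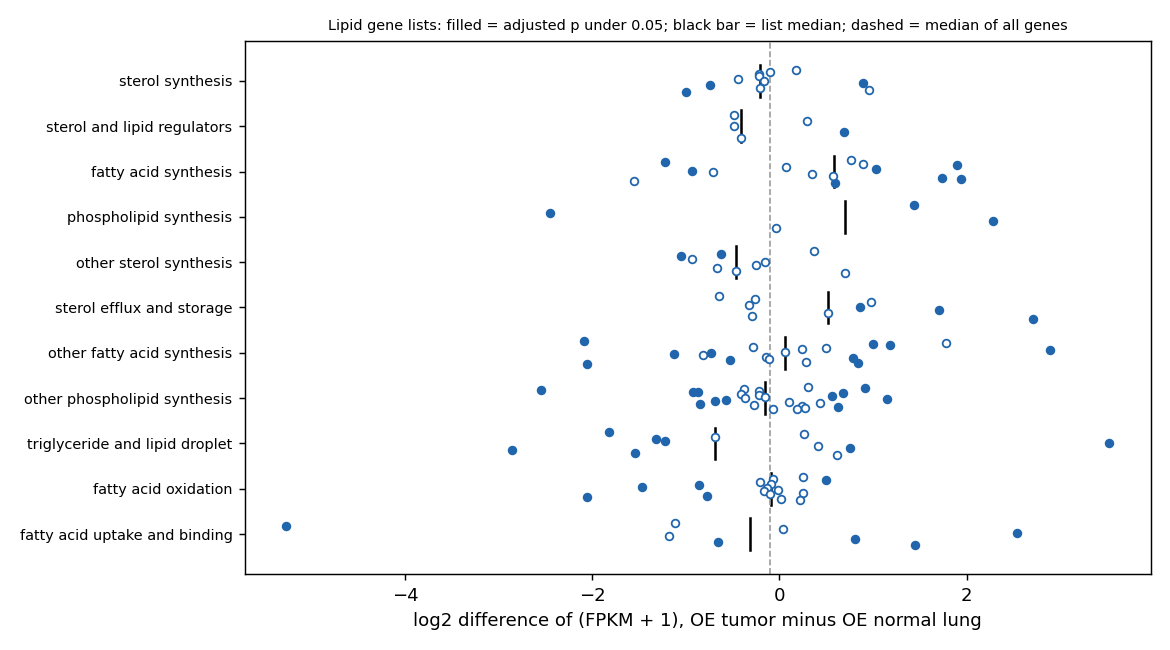
Log2 difference between tumors and OE normal lung for each gene of the member lists and of the surrounding lipid lists, on the log2(FPKM + 1) scale; filled points had an adjusted p under 0.05, the black bar is the list's median and the dashed line is the median of all genes tested, -0.11. Sterol synthesis has a median of -0.21, fatty acid synthesis 0.58 and sterol efflux and storage 0.52.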

How the data were processed

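RNA was sequenced in 7 mouse lung libraries, and the members and the surrounding gene lists were chosen with earlier results of these data known. The deposited values are FPKM per gene symbol, and the submitters' processing notes list TopHat2, TopHat, Cufflinks 2.0.0 and the mouse build mm9 for them, so the authors had scaled them by length and library size. The sources used here give no annotation, strand setting, normalization option or read total, so the depth behind each value is unknown. In each file 27 of 22474 entries carried a date in place of a symbol and were left out. Groups were taken from the labels.

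On log2(FPKM + 1), 14057 genes reached the minimum of 1 FPKM in 2 or more libraries. They were tested 2-sided in R 4.3.3 by limma 3.58.1, using eBayes with a trend over the mean. All 3 groups shared 1 estimate of the spread, and p was adjusted by Benjamini-Hochberg over every tested gene with a threshold of 0.05. Named genes were the 35 members and, of each surrounding list, up to 4 called genes with the smallest adjusted p in tumors against OE normal lung. A gene that this rule names is not reported here. Ezh2 and the marker lists were added as checks of the labels and cell types. Mogat1 and Fabp5 were chosen after their values were seen.

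The fit was tested on simulated data, in 5 runs that each altered 200 of the 14057 genes. For tumors against OE normal lung, 35.8% of 2-fold, 84.5% of 4-fold and 96.9% of 8-fold changes were recovered, with 4.02% of calls false. For tumors against WT lung the shares were 39.9%, 84.8% and 97.2%, with 4.81% false. Other settings tried were a replicate block, a pseudocount of 0.1, a filter of 5 FPKM or none, median-of-ratios scaling, TPM, quantile normalization, omission of 710 small RNA genes (5.80% to 16.7% of FPKM), no trend, a fit of only the groups compared and omission of each library in turn. Promoter sequences are from RefSeq, GRCm38.p6. Plots used Python 3.11.15 and matplotlib 3.10.9.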

Additional observations from a re-analysis of the deposited data

How the results depend on the processing

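Against OE normal lung, 9 of the 14 member calls (Mvd, Sqle, Fasn, Acacb, Me1, Acsl4, Lpcat1, Chka and Gpam) held under every alternative run, and against WT lung 7 of 17 did (Mvd, Fasn, Elovl5, Me1, Acsl4, Lpcat1 and Gpam). The share of all called genes that held in this way was not counted, so these counts have no background beside them. Leaving out 1 library at a time gave 11 to 26 members called against OE normal lung (2996 to 9620 of all genes), 7 to 25 against WT lung (2445 to 9438), and 0 to 1 members (0 to 290 genes) between OE normal and WT lung, the highest tumor counts without tumor 1. Same-numbered libraries deviated from their group means with correlations between -0.03 and 0.03, so the numbers were not taken as pairs. A replicate block lost the calls of Mvk, Srebf1 and Elovl1 in both comparisons. It also lost Scd2 against OE normal lung and Sqle, Dhcr7, Acaca, Fads2 and Chka against WT lung. Having no filter lost Scd2 and Elovl1 against OE normal lung and Acly and Acaca against WT lung. Fitting only the groups compared lost Scd2 against OE normal lung and Dhcr7, Acly and Acaca against WT lung. With a replicate block 3130 genes were called against OE normal lung in place of 5350, 2999 against WT lung in place of 5371 with 9 members in place of 17, and 1 between OE normal and WT lung. That last count was 1 with a pseudocount of 0.1, 38 without a filter and 3 with only the groups compared.

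Directions turned only for members not called on the deposited values. Against OE normal lung the log2 differences became 0.067 (Fdft1) and 0.14 (Pcyt1a) with median-of-ratios scaling. With quantile normalization they became 0.036 (Fdft1), 0.14 (Lss), 0.050 (Nsdhl), 0.35 (Hsd17b7) and 0.026 (Pcyt1a), and after rescaling to TPM -0.024 (Dhcr7) and -0.16 (Acss2). Acss2 was -0.056 without small RNA genes and -0.31 with a replicate block. With 1 library left out, Fdft1 ranged from -0.27 to 0.071, Acss2 from -0.31 to 0.64 and Pcyt1a from -0.24 to 0.35. Against WT lung the differences became 0.018 (Lss) and 0.082 (Pcyt1a) with median-of-ratios scaling and 0.11 (Lss), 0.074 (Hsd17b7) and 0.014 (Pcyt1a) with quantile normalization. Fads1 was -0.014 after rescaling to TPM, -0.068 without small RNA genes and -0.023 with a replicate block. With 1 library left out, Lss ranged from -0.17 to 0.060, Fads1 from -0.056 to 0.32, Acss2 from -0.68 to 0.28 and Pcyt1a from -0.24 to 0.35. The cause of these turns was not tested. Scaling moved the share of all called genes that were higher against OE normal lung from 34.5% to 44.6% (median-of-ratios), 53.7% (quantile), 23.9% (small RNA genes left out) and 18.2% (TPM), and against WT lung from 39.4% to 45.0%, 52.8%, 28.0% and 30.8%. Depth is unknown, and groups of 2 and 3 limit the precision.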
